A study of Mus musculus with 6 samples.

Results

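The 10 genes described here encode chaperones and folding helpers of the endoplasmic reticulum (ER) lumen that are known targets of the unfolded protein response (UPR). They were chosen by name, as BiP, GRP94, their cochaperones and small UPR-induced ER proteins, with earlier results of these data known. They are 10 of the 54115 genes with a row in the data. All 10 were among the 12524 genes with enough reads to be tested. RNA-seq was performed on the livers of 24-month-old male mice after a 16 h fast, 3 from wild-type (WT) mice and 3 from *Sirt7* knockout (KO) mice, and the comparison asks how hepatic transcripts differ without the nuclear deacetylase SIRT7. Both genotypes were littermates from crosses of heterozygous mice backcrossed to C57BL/6J. The *Sirt7* KO mice lacked the gene in the whole body and not in the liver alone, and whole livers were sampled, so that fewer cells of a type and less RNA per cell cannot be told apart.

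Secreted and membrane proteins fold in the ER lumen. When unfolded proteins accumulate there, the sensors IRE1, PERK and ATF6 signal to the nucleus, and XBP1 and the cleaved form of ATF6 raise the transcription of luminal chaperones. BiP holds unfolded chains in cycles of ATP hydrolysis that J-domain proteins start and nucleotide exchange factors end. Hepatocytes secrete most plasma proteins and therefore carry a large load of this machinery.

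The promoters of this group are known for the ER stress response element (ERSE), a sequence with a CCAAT box and a CCACG box that NF-Y and ATF6 or XBP1 are known to bind. The RefSeq promoter table of GRCm38.p6 held 8 of the 10 genes, all but *Hyou1* and *Manf*. The 4 promoters that contain the exact ERSE are given here, as the 220 bases before the RefSeq transcription start, 5′ to 3′ on the strand of the gene, with the element in capitals.

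Hspa5: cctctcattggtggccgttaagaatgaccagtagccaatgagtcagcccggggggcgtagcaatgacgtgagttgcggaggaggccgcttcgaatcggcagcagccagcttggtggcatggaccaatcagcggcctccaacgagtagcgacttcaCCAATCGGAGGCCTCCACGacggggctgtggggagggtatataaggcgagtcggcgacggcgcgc
Hsp90b1: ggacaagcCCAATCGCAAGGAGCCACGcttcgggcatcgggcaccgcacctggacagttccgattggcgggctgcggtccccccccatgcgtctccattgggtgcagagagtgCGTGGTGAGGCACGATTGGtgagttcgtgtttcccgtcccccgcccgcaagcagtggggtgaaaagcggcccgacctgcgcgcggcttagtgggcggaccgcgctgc
Dnajc3: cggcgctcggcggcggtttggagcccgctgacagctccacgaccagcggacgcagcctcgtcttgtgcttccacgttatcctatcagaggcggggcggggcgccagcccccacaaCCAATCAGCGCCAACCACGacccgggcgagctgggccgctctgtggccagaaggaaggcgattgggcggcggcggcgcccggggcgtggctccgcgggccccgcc
Creld2: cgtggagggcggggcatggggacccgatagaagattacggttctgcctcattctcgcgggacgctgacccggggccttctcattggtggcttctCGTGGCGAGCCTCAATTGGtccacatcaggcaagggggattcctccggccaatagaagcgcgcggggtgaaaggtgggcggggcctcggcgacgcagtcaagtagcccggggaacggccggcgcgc

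These windows lie at chr2:34771870-34772089 for *Hspa5*, chr10:86705445-86705664 on the reverse strand for *Hsp90b1*, chr14:118937712-118937931 for *Dnajc3* and chr15:88819426-88819645 for *Creld2*. The letters searched were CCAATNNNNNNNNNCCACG on both strands of the 250 bases before the start. Counted from the start, *Hspa5* held the element from -65 to -47, *Dnajc3* from -105 to -87 and *Creld2* from -126 to -108, there on the opposite strand. *Hsp90b1* held it at 2 places, from -212 to -194 and, on the opposite strand, from -107 to -89. The exact element was found in 4 of the 8 promoters and in 0.113% of the 32817 promoters of the table. No match in the other 4 promoters, those of *Dnajb9*, *Dnajb11*, *Sdf2l1* and *Ppib*, was added by allowing 1 mismatch in the CCACG box, a pattern that 0.899% of all promoters held. The 220 bases before the RefSeq start of *Dnajb9*, chr12:44210069-44210288, lie within the gene as annotated for the counts, chr12:44205559-44210326. Those of *Hspa5* and *Hsp90b1* lie within their genes in part. The related ERSE-II, ATTGGNCCACG, and the core of the UPR element, TGACGTGG, were in none of the 8 windows, against 0.0305% and 0.564% of all promoters. The GC content of the 8 windows was 62.4% to 73.6%, above the median of 52.4% over all promoters. A match is a description of letters, and the absence of one says only that these letters are not in the window.

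Between 9994860 and 13424776 reads per liver were assigned to transcripts. Both livers numbered 1 stood apart from the other livers of their genotype, with 21447 (WT) and 20921 (*Sirt7* KO) genes with at least 1 read against 18227 to 19553 in the other 4. The targeted gene kept reads in the libraries labelled *Sirt7* KO. *Sirt7* was at 55.2, 45.5 and 47.3 CPM (read counts scaled to the size of the library) in WT livers and at 28.6, 41.8 and 40.8 CPM in *Sirt7* KO livers, while its deposited TPM (transcript abundances scaled to length and library size) were 27.3 to 34.4 in WT and 34.7 to 68.0 in *Sirt7* KO livers. Its log2 fold change was -0.41 (SE 0.18, adjusted p = 0.423 by edgeR's quasi-likelihood test), and it was above 0 once transcript length entered the fit, so these libraries give no clear check of the genotype labels. The part of the gene that the allele removes is not given in the sources used here.

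Hepatocyte markers (7 of 8 found) summed to 57446 to 58799 CPM in WT livers and to 58951 to 65756 CPM in *Sirt7* KO livers, without overlap. As single genes only 3 of the 7 had a log2 fold change above 0, and the median of the 7 was -0.07. *Apoa1*, the only one of them without overlap, had a mean of 12010 CPM in WT and 15787 CPM in *Sirt7* KO livers. The part of these markers in the results below was not tested. The summed markers of the other 7 cell types overlapped between the genotypes, and no marker of any type passed an unadjusted p of 0.05. Plasma cells and pancreatic acinar cells also carry much ER. The 10 plasma cell and B cell markers summed to 229 to 331 CPM in WT and 308 to 381 CPM in *Sirt7* KO livers, most of it *Sdc1*, which hepatocytes also express. The plasma cell gene *Mzb1* was at most at 0.508 CPM and *Tnfrsf17* at 0 in all 6 livers. The 6 acinar markers summed to 0.148 to 1.27 CPM in WT and 0.916 to 1.54 CPM in *Sirt7* KO livers, with *Prss2* and *Pnlip* at 0 throughout.

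The chaperones did not move as one group. The transcripts of *Hspa5*, *Hsp90b1*, *Hyou1*, *Dnajb11*, *Sdf2l1* and *Ppib* were higher in each *Sirt7* KO liver than in each WT liver. Those of *Manf* and *Creld2* overlapped between the groups and were highest in *Sirt7* KO replicate 1. Without both livers numbered 1, chosen after the data were seen, the log2 fold change was 0.81 for *Manf* and 0.19 for *Creld2*. The transcripts of *Dnajb9* and *Dnajc3* overlapped between the groups with a log2 fold change near 0. Groups without overlap, *Sirt7* KO above WT, were thus seen for 6 of the 10, against 8.74% of all tested genes. An unadjusted p under 0.05 with a higher level in *Sirt7* KO livers was reached by 7 of the 10, against 6.54% of all tested genes, and none was lower at that p. The 10 were chosen with earlier results of these data known, so these shares describe the list and are no test of it. No chaperone passed the test as set, an adjusted p under 0.05 and a fold change over 1.5 by edgeR's quasi-likelihood test with Benjamini-Hochberg adjustment, which 0.00798% of all tested genes passed, a single gene. The median log2 fold change of the 10 was 0.74 and that of all tested genes was -0.01.

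**Figure D1:**
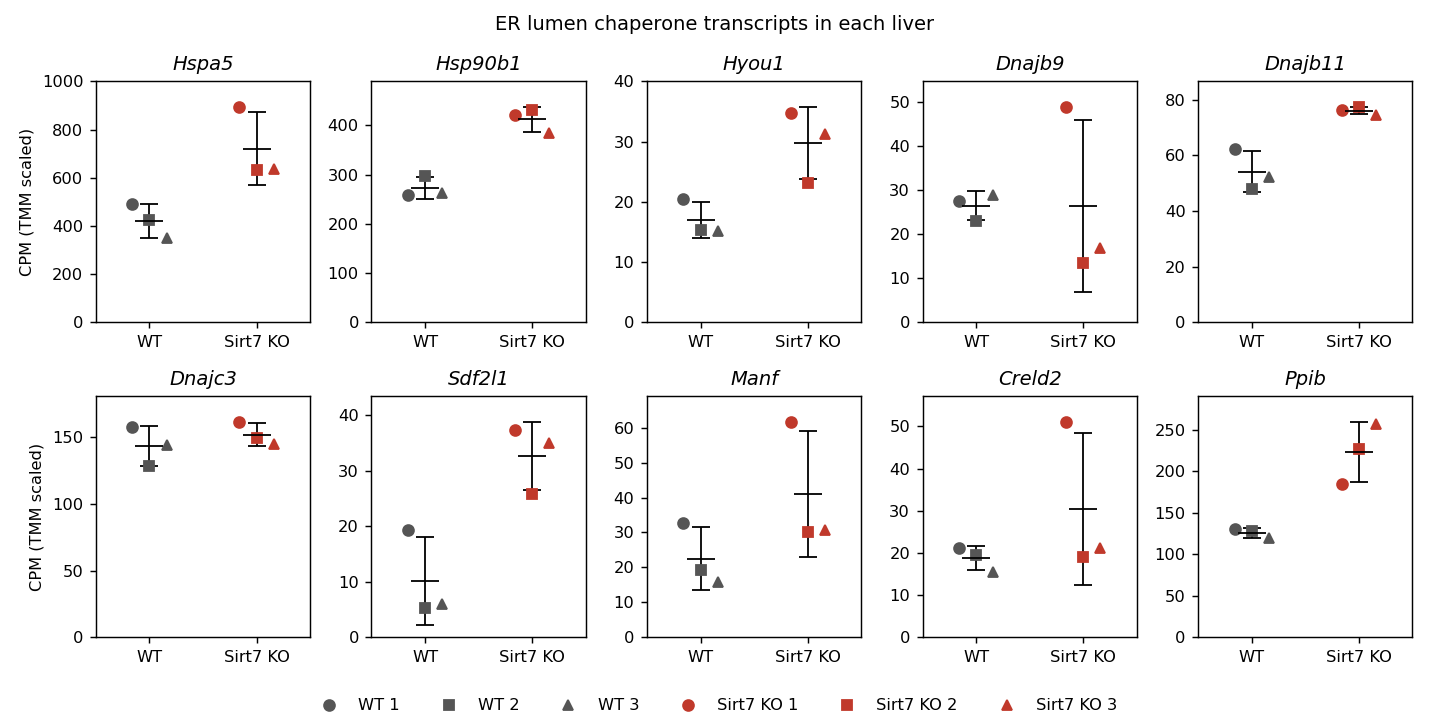
Levels of the 10 chaperone transcripts in each liver, in TMM-scaled CPM on linear axes from 0, with WT livers in grey, Sirt7 KO livers in red, a symbol for each replicate number, and the mean and SD in black (n = 3). In 6 panels every Sirt7 KO liver lies above every WT liver, while in the panels of Dnajb9, Manf and Creld2 replicate 1 of Sirt7 KO lies far above replicates 2 and 3.

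*Hspa5* encodes BiP (GRP78), the Hsp70 of the ER, which also holds the UPR sensors inactive at rest. Its gene (ENSMUSG00000026864.13, chr2:34771970-34777547, forward strand, GRCm38) was at 490, 426 and 350 CPM in WT livers and at 895, 632 and 636 CPM in *Sirt7* KO livers. The lowest *Sirt7* KO liver was 1.29-fold above the highest WT liver. The mean was 422 ± 70.3 CPM in WT and 721 ± 150 CPM in *Sirt7* KO livers (SD, n = 3), a log2 fold change of 0.77 (SE 0.20, edgeR adjusted p = 0.202). *Hspa5* gave the largest number of reads of the group, 4695 to 9769 per liver, and 95.9% to 97.4% of them were on 1 protein-coding transcript.

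*Hsp90b1* encodes GRP94, the Hsp90 of the ER, which folds Toll-like receptors and integrins. Its gene (ENSMUSG00000020048.13, chr10:86690209-86705509, reverse strand) was at 258, 297 and 263 CPM in WT livers and at 422, 432 and 384 CPM in *Sirt7* KO livers. The 3 livers of each genotype were close together and the groups were 1.29-fold apart at their nearest points. edgeR gave a log2 fold change of 0.60 (SE 0.14, edgeR adjusted p = 0.173), and it stayed within 0.55 to 0.66 when any 1 liver was left out. A pseudogene on the other strand, *1810014B01Rik*, shares sequence with the gene and carried 4 to 32 reads per liver, against 3045 to 4609 for *Hsp90b1*.

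*Hyou1* encodes GRP170, a large relative of Hsp70 that exchanges the nucleotide of BiP. The gene (ENSMUSG00000032115.14, chr9:44379490-44392369, forward strand) was at 20.5, 15.3 and 15.1 CPM in WT livers and at 34.8, 23.1 and 31.3 CPM in *Sirt7* KO livers. The groups did not overlap, although *Sirt7* KO replicate 2 was only 1.13-fold above the highest WT liver. Its log2 fold change was 0.81 (SE 0.20, edgeR adjusted p = 0.193). In *Sirt7* KO replicate 2 the main transcript took 33.2% of the reads of the gene, against 86.9% to 94.5% in the other 5 livers, and the rest lay mostly on other coding transcripts, since coding transcripts together took at least 91.7% in every liver.

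The J-domain proteins start the ATPase cycle of BiP, and the 3 on the list behaved differently from each other. *Dnajb11* encodes ERdj3, an abundant luminal cochaperone that binds unfolded chains directly. The gene (ENSMUSG00000004460.17, chr16:22857845-22879634, forward strand) was at 62.4, 48.0 and 52.2 CPM in WT livers and at 76.3, 77.4 and 74.7 CPM in *Sirt7* KO livers. The *Sirt7* KO livers were close together and all above the WT livers. A log2 fold change of 0.49 (SE 0.14, edgeR adjusted p = 0.251) was found, a fold change of 1.40 and so under the limit of 1.5.

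*Dnajc3* encodes P58IPK, a luminal J-domain protein with tetratricopeptide repeats. The gene (ENSMUSG00000022136.8, chr14:118937976-118981697, forward strand) was at 158, 128 and 144 CPM in WT livers and at 162, 149 and 145 CPM in *Sirt7* KO livers. The groups overlapped. Its log2 fold change was 0.08 (SE 0.14, edgeR adjusted p = 0.874), and the read number, 1410 to 1951 per liver, was among the higher ones of the list. The promoter holds an exact ERSE, whose part in these levels was not tested.

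*Dnajb9* encodes ERdj4, which recruits BiP to the luminal domain of IRE1 and takes part in the degradation of misfolded clients. The gene (ENSMUSG00000014905.4, chr12:44205559-44210326, reverse strand) was at 27.7, 23.0 and 29.1 CPM in WT livers and at 49.0, 13.5 and 16.9 CPM in *Sirt7* KO livers. *Sirt7* KO replicate 1 was thus the highest of the 6 livers, while replicates 2 and 3 were below every WT liver. The mean was 26.6 ± 3.21 CPM in WT and 26.4 ± 19.6 CPM in *Sirt7* KO livers (SD, n = 3), with a log2 fold change of -0.0046 (SE 0.42, edgeR adjusted p = 0.998). Without *Sirt7* KO replicate 1 the log2 fold change was -0.81 (SE 0.19, edgeR adjusted p = 0.0726), and over the 6 fits that leave out 1 liver it ran from -0.81 to 0.31.

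*Sdf2l1* encodes a small luminal protein that works in a complex with ERdj3. The gene (ENSMUSG00000022769.9, chr16:17130138-17132383, reverse strand) was at 19.3, 5.26 and 5.99 CPM in WT livers and at 37.4, 25.7 and 34.9 CPM in *Sirt7* KO livers. The groups did not overlap, and WT replicate 1 was far above the other WT livers. Its log2 fold change of 1.68 (SE 0.45, edgeR adjusted p = 0.211) was the highest of the list, on 58 to 408 reads per liver. Over the 6 fits that leave out 1 liver the log2 fold change ran from 1.38 to 2.53, and 1 of these fits passed the test. It was the fit without WT replicate 1, the WT liver nearest to the *Sirt7* KO livers, at 2.53 (SE 0.24, edgeR adjusted p = 0.0354). That liver was singled out after the data were seen, and the fit called 2 of 12944 genes in all.

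*Ppib* encodes cyclophilin B, a prolyl isomerase that helps procollagen and other chains to fold. The gene (ENSMUSG00000032383.7, chr9:66060222-66066623, forward strand) was at 130, 128 and 119 CPM in WT livers and at 185, 228 and 258 CPM in *Sirt7* KO livers. The lowest *Sirt7* KO liver, replicate 1, was 1.42-fold above the highest WT liver, the widest gap of the list. The log2 fold change was 0.83 (SE 0.16, edgeR adjusted p = 0.134), and without *Sirt7* KO replicate 1 it was 0.95 (SE 0.14, edgeR adjusted p = 0.0204), which passed the test. It ran from 0.71 to 0.95 over the 6 fits that leave out 1 liver, of which 1 passed. *Ppib* shares 825 exonic bases with *Snx22* on the other strand, and the libraries do not mark strand, so reads of the overlap cannot be told apart. *Snx22* was given 1 to 27 reads per liver and *Ppib* 1410 to 2676.

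*Manf* encodes a small luminal protein that binds BiP and slows its nucleotide exchange, and that is also secreted. The gene (ENSMUSG00000032575.16, chr9:106838312-106891979, reverse strand) was at 32.8, 19.1 and 15.7 CPM in WT livers and at 61.7, 30.2 and 30.8 CPM in *Sirt7* KO livers. WT replicate 1 lay above *Sirt7* KO replicates 2 and 3, so that the groups overlapped. The log2 fold change was 0.86 (SE 0.34, edgeR adjusted p = 0.386), 0.44 (SE 0.28, edgeR adjusted p = 0.477) without *Sirt7* KO replicate 1, and 0.81 (SE 0.18, edgeR adjusted p = 0.058) without both livers numbered 1.

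*Creld2* encodes a luminal protein with disulfide isomerase activity. The gene (ENSMUSG00000023272.4, chr15:88819646-88826683, forward strand) was at 21.1, 19.5 and 15.5 CPM in WT livers and at 51.1, 18.97 and 21.2 CPM in *Sirt7* KO livers. A single liver, *Sirt7* KO replicate 1, made the difference of the means, and the other 5 lay between 15.5 and 21.2 CPM. The log2 fold change of 0.70 (SE 0.35, edgeR adjusted p = 0.499) became 0.11 (SE 0.19, edgeR adjusted p = 0.823) without that liver. An exact ERSE is in the promoters of *Creld2* and *Dnajc3*, whose groups overlapped, and of *Hspa5* and *Hsp90b1*, whose groups did not. The part of the element in these levels was not tested.

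**Figure D2:**
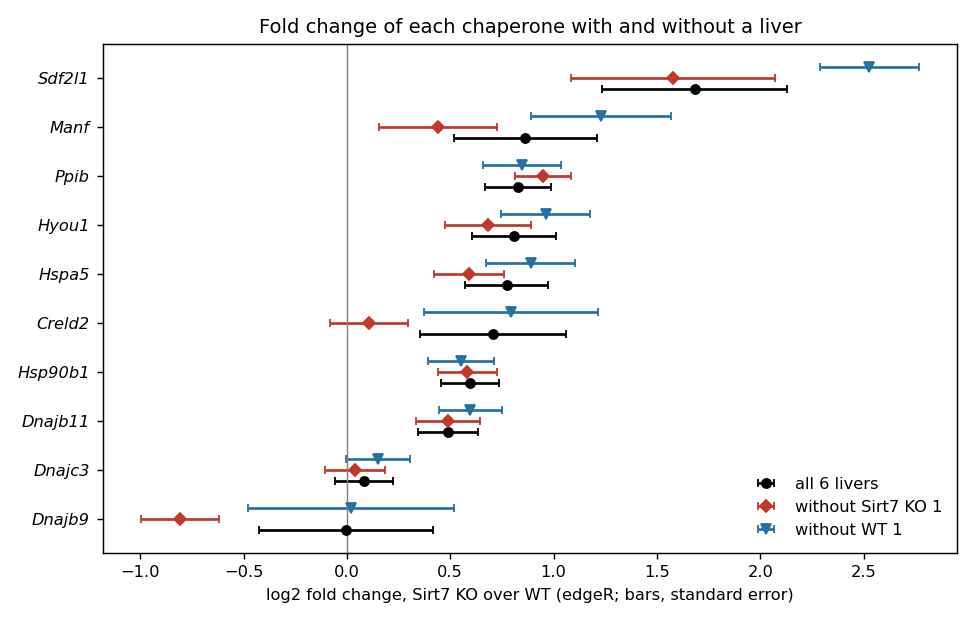
The log2 fold change of each chaperone, Sirt7 KO over WT, by edgeR with all 6 livers (black), without Sirt7 KO replicate 1 (red) and without WT replicate 1 (blue), with bars for the standard error. Dnajb9 moves from -0.0046 to -0.81 and Creld2 from 0.70 to 0.11 without Sirt7 KO replicate 1, while Sdf2l1 moves from 1.68 to 2.53 without WT replicate 1.

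The livers differed in how many chaperones they led. *Sirt7* KO replicate 1 was the highest of the 6 livers for 7 of the 10 transcripts, replicate 2 for 2 and replicate 3 for 1. Among the WT livers alone, replicate 1 was the highest for 8 of the 10. WT replicate 3 was the lowest of the 6 livers for 5 transcripts and WT replicate 2 for 3. After each transcript was centred on its mean over the 6 livers, the mean over the 10 was -0.05, -0.45 and -0.49 in WT livers and 0.66, 0.10 and 0.23 in *Sirt7* KO livers on the log2 scale.

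**Figure D3:**
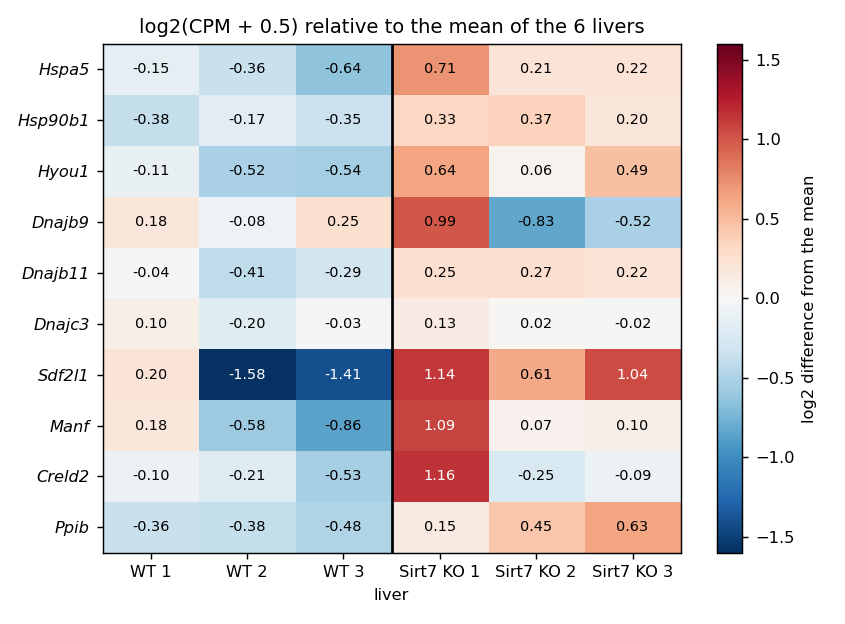
Each chaperone in each liver as log2(CPM + 0.5) relative to its mean over the 6 livers, from blue (below the mean) to red (above it), with WT livers left of the black line and Sirt7 KO livers right of it. Sirt7 KO replicate 1 is the highest liver for 7 of the 10 transcripts, and Dnajb9 is below its mean in Sirt7 KO replicates 2 and 3.

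Without *Sirt7* KO replicate 1, 6 chaperones were higher at an unadjusted p under 0.05, against 8.97% of the 12921 genes tested in that fit. *Dnajb9* was lower at that p, a direction for which the share over all genes in that fit was not counted. *Ppib* alone was called in that fit, in which 1.28% of all genes were called higher. Without both livers numbered 1, a setting chosen after the data were seen, *Hspa5*, *Sdf2l1* and *Ppib* were called, against 1.66% of all genes called higher in that fit. DESeq2 called 5 chaperones, all higher in *Sirt7* KO livers (*Hspa5*, *Hsp90b1*, *Hyou1*, *Sdf2l1* and *Ppib*), against 1.28% of all genes called higher by it. With transcript length as an offset it called *Hspa5*, *Sdf2l1* and *Ppib*, against 1.33% of all genes. *Manf* and *Creld2* were called only where genes with low counts were kept, and *Dnajb9*, *Dnajb11* and *Dnajc3* in no fit that was run.

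Levels can be compared between genes per transcript length, in TPM. In WT livers *Hspa5* was at 178 ± 45.7 TPM, *Ppib* at 162 ± 13.9 TPM and *Hsp90b1* at 89.9 ± 4.81 TPM (SD, n = 3), ahead of *Manf* at 37.2 ± 19.9 TPM. *Dnajb11* (25.9 TPM), *Dnajc3* (24.8 TPM), *Creld2* (14.1 TPM), *Sdf2l1* (10.3 TPM), *Dnajb9* (10.1 TPM) and *Hyou1* (3.59 TPM) followed in the order of their WT means. Of neighbours in that order, the WT ranges of *Hspa5* and *Ppib*, *Manf* and *Dnajb11*, *Dnajb11* and *Dnajc3*, *Creld2* and *Sdf2l1*, and *Sdf2l1* and *Dnajb9* overlapped, and the others did not. In *Sirt7* KO livers the means were 289 TPM for *Hspa5*, 279 TPM for *Ppib*, 132 TPM for *Hsp90b1* and 61.9 TPM for *Manf*. The mean of *Sdf2l1* there was 30.8 TPM, that of *Dnajc3* 25.2 TPM and that of *Creld2* 21.8 TPM, with overlapping ranges of *Sdf2l1* and each of the others. The 10 transcripts together made up 670, 517 and 480 TPM in WT livers and 924, 851 and 896 TPM in *Sirt7* KO livers, and *Hspa5* and *Hsp90b1* together were 43.7% to 50.8% of that sum in every liver.

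To set each chaperone against a relative outside the list, mostly of the cytosol, the log2 ratio of their CPM was taken within each liver, which needs no scaling between libraries. The ratio was higher in every *Sirt7* KO liver than in every WT liver for 6 of the 10 pairs, and for no pair the reverse. The 6 pairs were those of the chaperones whose own CPM did not overlap, so this count is no separate support. How often other pairs of genes are apart was not counted. For these 6 the two-sided exact permutation test gave p = 0.1, the smallest that 3 against 3 livers allow, and 0.167 after Benjamini-Hochberg adjustment over the 10 pairs. *Hspa5* over *Hspa8*, the constitutive cytosolic Hsp70, had log2 ratios of -1.13, -1.68 and -1.44 in WT livers and 0.34, 0.64 and -0.09 in *Sirt7* KO livers, a difference of 1.72. Both genes contributed, since *Hspa8* was at 1074, 1367 and 953 CPM in WT livers and at 705, 405 and 678 CPM in *Sirt7* KO livers (log2 fold change -0.92, SE 0.24, edgeR adjusted p = 0.204). *Hsp90b1* over the cytosolic *Hsp90ab1* differed by 0.81, from -1.04 ± 0.06 to -0.23 ± 0.28 (SD, n = 3). *Ppib* over the cytosolic cyclophilin *Ppia* differed by 0.85, with *Ppia* itself at a log2 fold change of -0.03 (SE 0.18, edgeR adjusted p = 0.967).

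*Sdf2l1* and *Sdf2* encode closely related luminal proteins, of which *Sdf2* is known as the constitutive one. *Sdf2* was at 30.5, 29.5 and 29.7 CPM in WT livers and at 27.4, 30.9 and 30.9 CPM in *Sirt7* KO livers, and the log2 ratio of *Sdf2l1* to it differed by 1.87 between the genotypes. The ratio rested on *Sdf2l1*, as *Sdf2* had a log2 fold change of -0.0077 (SE 0.13, edgeR adjusted p = 0.991). *Dnajb11* over *Dnaja1* differed by 0.92, to which *Dnaja1* contributed, since it was lower in every *Sirt7* KO liver than in every WT liver (log2 fold change -0.42, SE 0.18, edgeR adjusted p = 0.417). *Hyou1* over *Hspa4* differed by 0.90. The ratios overlapped for *Creld2* over *Creld1* (difference 0.42, exact permutation p = 0.7), *Dnajb9* over *Dnajb1* (0.17, exact permutation p = 1) and *Dnajc3* over *Dnajc7* (-0.42, exact permutation p = 0.3). *Cdnf*, the relative of *Manf*, had 0 to 3 reads per liver, at which no ratio can be read.

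**Figure D4:**
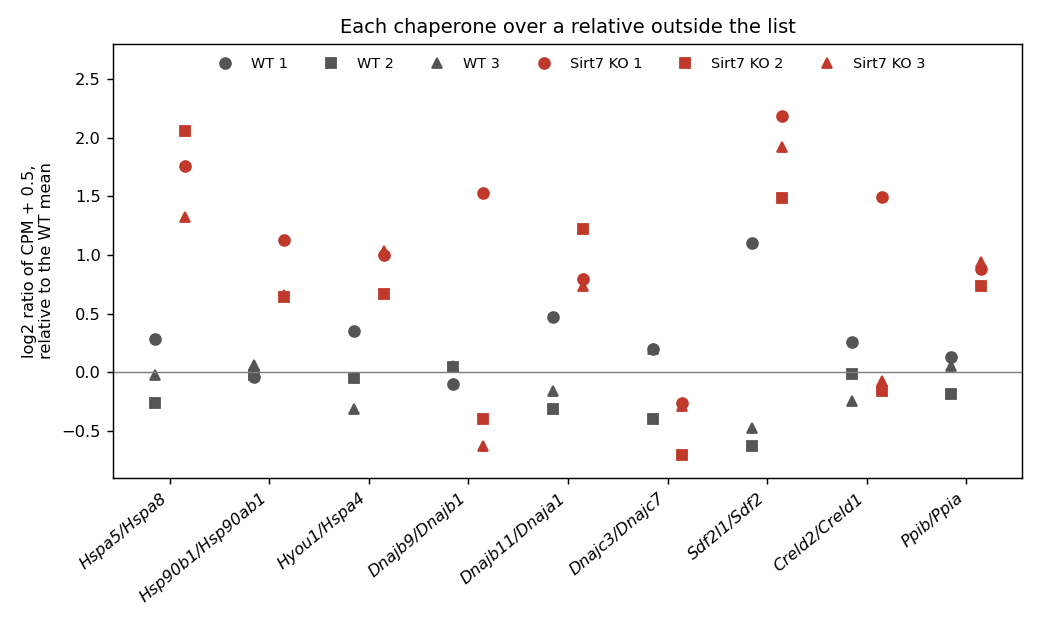
The log2 ratio of each chaperone to its relative, from CPM + 0.5, in each liver and relative to the WT mean of the pair, with WT livers in grey and Sirt7 KO livers in red. The groups are apart for 6 pairs, and the difference of means is largest for Sdf2l1/Sdf2 (1.87) and Hspa5/Hspa8 (1.72). The pair of Manf and Cdnf is not drawn, as Cdnf had at most 3 reads.

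The other genes of the pathway were counted in lists by role, beside 6.54% of all tested genes higher and 4.78% lower in *Sirt7* KO livers at an unadjusted p under 0.05. edgeR called 0 of the 122 tested genes of these lists with all 6 livers, with 35 at that p. DESeq2 called 7, *Calr*, *Ddost*, *Pdia3*, *Pdia4*, *Pdia5* and *Spcs3* as higher and *Hspa8* as lower. With a length offset DESeq2 called 8 as higher and 1 as lower, and edgeR without *Sirt7* KO replicate 1 called 3 and 1. Among the protein disulfide isomerases and their oxidases, which form the disulfide bonds of secreted proteins, 7 of 17 were higher in *Sirt7* KO livers at an unadjusted p under 0.05 and none was lower (median log2 fold change 0.41). *Pdia5* was at 51.7, 46.7 and 43.2 CPM in WT livers and at 87.9, 102 and 89.7 CPM in *Sirt7* KO livers, with a log2 fold change of 0.98 (SE 0.14, edgeR adjusted p = 0.0553), called without *Sirt7* KO replicate 1 (edgeR adjusted p = 0.0204) and by DESeq2 (adjusted p = 1.81e-05). *Pdia4* had a log2 fold change of 0.77, and the smallest at that p were those of *Tmx2* (0.40) and the oxidase *Ero1lb* (0.41). In the calnexin cycle and N-glycosylation list, which covers lectin chaperones and the oligosaccharyltransferase, 9 of 14 were higher and none was lower at that p (median 0.37). *Calr*, the lectin chaperone calreticulin, had a log2 fold change of 0.89 (SE 0.17, edgeR adjusted p = 0.123), and *Ddost*, a subunit of the oligosaccharyltransferase, one of 0.64 (SE 0.13, edgeR adjusted p = 0.152). The smallest at that p were those of *Rpn1* (0.37) and *Lman1* (0.32). The lowest of the whole list was that of *Mogs*, -0.79 (SE 0.38, edgeR adjusted p = 0.480), which did not reach that p. *Mogs* was called lower without *Sirt7* KO replicate 1, and was named after its values were seen.

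Of the genes of ER translocation, which bring new chains into the lumen, 6 of 17 were higher and none was lower (median 0.34). The signal peptidase subunit *Spcs3* had a log2 fold change of 0.83 (SE 0.14, edgeR adjusted p = 0.103) and the translocon subunit *Sec61b* one of 0.57, with *Spcs2* at 0.47 and *Ssr1* at 0.46. Other ER folding factors gave a lower share, 3 of 21 higher and none lower (median 0.07), nearer to the 6.54% of all tested genes. The 3 were *Fkbp11* at 0.85, *Hspa13* at 0.59 and the BiP exchange factor *Sil1* at 0.41. In ER-associated degradation 2 of 17 were higher and none was lower (median 0.20), a count near the share of 6.54% over all tested genes, with the mannosidase-like *Edem2* at 0.55 and the ubiquitin ligase *Syvn1* at 0.43. Of the UPR sensors and transcription factors 2 of 15 were higher and none was lower (median 0.12), also near that share, with *Ern1*, which encodes IRE1, at 0.54 and *Atf6* at 0.50. The transcripts of *Xbp1* (0.24), *Eif2ak3* (0.42), which encodes PERK, *Atf4* (0.12) and *Ddit3* (-0.26) did not reach that p, and these 4 were picked by name after their values were seen.

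Outside the ER, 5 of 21 cytosolic and mitochondrial chaperones were lower in *Sirt7* KO livers at an unadjusted p under 0.05, against 4.78% of all tested genes, and 1 was higher (median -0.12). All 3 *Sirt7* KO livers lay below all WT livers for 5 of the 21, against 8.09% of all tested genes. *Hspa8* was the lowest, and *Hsph1*, its nucleotide exchange factor, was at 21.5, 22.7 and 16.8 CPM in WT livers and at 9.89, 11.2 and 14.8 CPM in *Sirt7* KO livers (log2 fold change -0.76, SE 0.21, edgeR adjusted p = 0.224). *Dnajc7* was the single higher gene, with a log2 fold change of 0.52 (SE 0.19, edgeR adjusted p = 0.346), and *Dnaja2* was at -0.38.

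**Figure D5:**
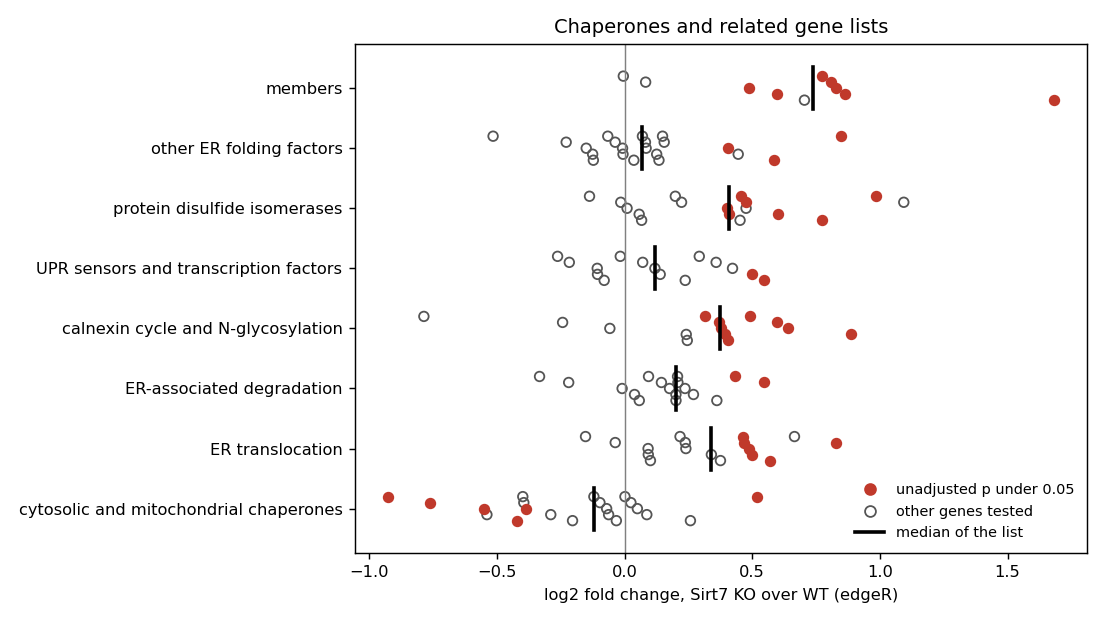
The log2 fold change, Sirt7 KO over WT, of every tested gene in the chaperone list (members, top row) and in 7 related lists, with genes at an unadjusted p under 0.05 in red, the others as open circles, and a black bar at the median of each list. The medians run from 0.74 for the 10 chaperones through 0.41 for the protein disulfide isomerases to -0.12 for the cytosolic and mitochondrial chaperones.

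An exact ERSE in the promoter was found for 35 genes, of which 4 were chaperones of the list and 31 were not. Of the 12 others that could be tested, 7 were higher in *Sirt7* KO livers at an unadjusted p under 0.05 and 1 was lower, against 6.54% and 4.78% of all tested genes, with a median log2 fold change of 0.50. Those of the related lists were *Calr*, *Canx* (0.41), *Syvn1*, *Ero1lb* and *Pdia6*, the last at a log2 fold change of 1.09 (SE 0.64, edgeR adjusted p = 0.572) with 232 CPM in *Sirt7* KO replicate 1 and 19.1 to 71.3 CPM in the other livers. *Pdia6* did not reach that p, and *Calr*, *Canx*, *Syvn1* and *Ero1lb* were also counted in their lists above. The rest of the 7 higher genes were on none of the lists, *Xlr3a* (1.76), *Acacb* (0.94) and *Pan2* (0.57). The lower gene was *Acnat2*, at 92.2, 84.6 and 71.8 CPM in WT livers and at 39.7, 53.5 and 44.2 CPM in *Sirt7* KO livers. *Canx*, *Pdia6*, *Xlr3a*, *Acacb*, *Pan2* and *Acnat2* were chosen after their values were seen, and this search as a whole was added then.

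The genes with profiles most like the mean profile of the 10 chaperones were sought among 8903 other genes with a mean of at least 50 reads, by the root mean square distance of log2(CPM + 0.5) over the 6 livers. *Elac1*, a tRNA processing enzyme, was the nearest at 0.086, followed by *Tmed3* (0.099), a cargo receptor of ER to Golgi transport, *Itih3* (0.125), *Med24* (0.128) and *Cdk17* (0.134). The level of *Elac1* was low, 3.99 to 7.97 CPM over the 6 livers, with an edgeR adjusted p of 0.364. Of the chaperones themselves, each of which is part of that mean, *Hspa5* was the nearest to their mean profile, at 0.099. *Sdf2l1* (0.746) and *Dnajb9* (0.613) were the farthest. *Tmed3* was at 14.6, 11.3 and 10.8 CPM in WT livers and at 23.0, 19.2 and 17.3 CPM in *Sirt7* KO livers.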

How the data were processed

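Livers of 3 WT and 3 *Sirt7* KO mice were analysed, grouped by the labels. Per the paper's methods, cDNA was made with SMART-seq HT and libraries with Nextera XT, which do not mark strand, and reads were single-end. The authors trimmed reads with Trim Galore 0.6.5 and quantified transcripts with Salmon 1.2.1, and deposited estimated counts and TPM per transcript, with an effective length that was the same in all files. The gene annotation they used is not given in the sources used here.

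Estimated counts were summed per gene by GENCODE M21 (GRCm38) and rounded, and 1201 of 140992 transcripts had no gene there. Genes were tested with edgeR 4.0.16 (TMM, filterByExpr at a minimum count of 10, quasi-likelihood test) in R 4.3.3, with Benjamini-Hochberg adjustment over all tested genes. Called means an adjusted p under 0.05 and a fold change over 1.5. CPM were scaled by TMM. Ratios used CPM + 0.5. DESeq2 1.42.0, limma 3.58.1 and other settings were alternatives. The labels name biological replicates, and no files were identical (chi-square per gene at least 16.9 between livers of a genotype).

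Genes named in the related lists are, of those at an unadjusted p under 0.05, the pair with the highest and the pair with the lowest log2 fold change. The 10 genes, lists and pairs were chosen with earlier results of these data known. On simulated data of 12524 genes the edgeR step recovered 25.3% of 2-fold and 81.7% of 4-fold changes, with 8.77% false calls.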

Additional observations from a re-analysis of the deposited data

How the results depend on the processing

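The edgeR fit called 0 of the 10 chaperones, with 7 at an unadjusted p under 0.05, and this count of 0 did not hold in every setting. Without a filter on low counts 6 were called, by DESeq2 5, by DESeq2 with a length offset 3 and without both livers numbered 1, chosen after seeing the data, 3. The count ran from 0 to 1 when 1 liver was left out, and was 0 by limma-voom, with other size factors, with the stricter filter and with a length offset in edgeR. The cause was not tested. Over all genes these settings also called more, 633 genes without the filter, 256 by DESeq2, 242 with the offset, 252 without *Sirt7* KO replicate 1 and 376 without both livers numbered 1, against 1. The median log2 fold change of the 10 ran from 0.54 to 0.84.

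Genes of the related lists at an unadjusted p under 0.05 numbered 35, with total counts 20, and 21 to 37 when 1 liver was left out (21 without WT replicate 2, 23 without *Sirt7* KO replicate 2). Total counts shifted the median of all genes to -0.11, and *Dnajc3* was then at -0.032. *Sirt7* turned to 0.81 (DESeq2) and 0.80 (edgeR) with a length offset. *Dnajb9* turned to 0.0030 with the stricter filter, 0.017 and 0.014 with the length offset in DESeq2 and edgeR, and ran from -0.81 to 0.31 when 1 liver was left out. With the replicate number as a block 0 chaperones were called, 7 were at an unadjusted p under 0.05 and all genes called numbered 41. Deviations of same-numbered livers from their group means were weakly correlated (r = 0.065, 0.080 and -0.044), against r of -0.103 to 0.049 for pairs with different numbers. Whether livers of the same number share a batch is not given by the labels and was not tested. Replicates 1 and 2 of each genotype correlated best with their own number, and replicate 3 of each genotype did not. Depth limits *Sdf2l1* most, with 58 reads in WT replicate 2. The related lists had 9 genes called without the filter on low counts, 6 higher and 3 lower, against 633 of 27881 over all genes. Without both livers numbered 1 they had 7, 6 higher and 1 lower, against 376 of 12555 over all genes. Of the values for single genes other than *Sirt7* under an alternative, 682 kept their direction and their side of the threshold, 46 passed it only there and 8, all given above or within the ranges, changed sign.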
